A study of Rattus norvegicus with 4 samples.

Results

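The genes described here carry newly made secretory proteins into the endoplasmic reticulum (ER) and between the ER and the Golgi. They were chosen by gene symbol alone: the SRP genes named Srp and a number, the translocon genes Sec61, Sec62 and Sec63, the Ssr and Spcs genes, the coat genes Sec13, Sec16, Sec23, Sec24 and Sec31, Sec22, the Tmed genes, and the Cop genes for the alpha, beta, gamma, epsilon and zeta subunits. Of 14217 genes with a probe set that the platform annotation maps to 1 symbol, 48 matched, through 76 probe sets, and each gene was represented by the probe set with the highest mean signal over the arrays. The set is wider than vesicle traffic, since the Srp, Sec61 to Sec63, Ssr and Spcs genes act at entry into the ER. Expression was measured in the ventral prostate lobe of male F344 rats aged 6 weeks, an inbred laboratory strain. The control group received no PhIP. The other group received PhIP, a carcinogenic heterocyclic amine of cooked meat, at a dose of 300 mg/kg, and rats of both groups were killed after 2 days. There were 4 rats a group, and every array took the mixed RNA of 2 of them, so the replicates are 2 control arrays and 2 PhIP arrays, named control 1, control 2, PhIP 1 and PhIP 2.

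A protein destined for secretion is recognised on the ribosome by the signal recognition particle, handed to the Sec61 channel of the ER membrane, helped through by the TRAP complex and trimmed by signal peptidase. Folded cargo then leaves the ER in vesicles with a COPII coat, with p24 proteins (the Tmed genes) among the cargo receptors, and COPI vesicles return escaped ER proteins and receptors from the Golgi. The luminal cells of the ventral prostate make large amounts of secreted protein, so this machinery is in constant use there.

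The values are MAS5 signals, the linear-scale summary of a probe set on an Affymetrix array, and the trimmed mean of the deposited values was 100.04 on every array. Median signals lay between 23.1 and 27.4. As a sign of RNA quality, the 3′ signal over the 5′ signal was 5.71 for actin on control 2 (3.49 to 4.18 on the other arrays) and 2.06 for Gapdh (1.34 to 1.45). The 18 probe sets for RNAs added in fixed amounts at hybridisation were on average lower in PhIP, by −0.23 on the log2 scale. Genes of luminal cells were present. Pbsn, which encodes the secreted protein probasin, had signals of 4898 and 4399 on the control arrays against 4273 and 4643 with PhIP. The luminal keratin gene Krt8 had 1419 and 1496 against 1526 and 1527. Because whole tissue was measured, fewer cells of a type and less RNA per cell cannot be told apart in any of the values below.

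The question put to these arrays is how expression in the lobe differs 2 days after exposure. As a group, the traffic genes had a median close to that of all genes: over the 46 bright enough to be tested it was −0.029 on the log2 fold change scale (SD 0.20), against −0.026 over all 10506 genes tested (SD 0.30). The middle 50% of the members lay between −0.084 and 0.090, and that of all genes between −0.21 and 0.13. The summed signal of the 48 genes was 63742 and 62084 in control against 63145 and 61511 in PhIP, and these ranges overlapped. A log2 fold change within 0.2 of 0 was found for 39 of the 46 (84.8%), against 57.8% of all genes, and one beyond 0.5 for 2 of the 46 (4.35%), against 9.75% of all genes. With 21 members above 0 and 25 below, the share above 0 was 45.7%, against 45.9% of all genes. The 2 beyond 0.5 were Srp54a, lower in PhIP, and Tmed1, higher. The 95% interval of the change lay wholly within 0.5 of 0 for 39 of the 46, against 39.6% of all genes. The members' standard errors were also small, with a median of 0.10 against 0.16 over all genes. The members were brighter too, with a median signal of 891 to 929 across the arrays, against a median of 117 over all genes tested. What part brightness had in their narrower spread was not tested.

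No member passed limma's adjusted p of 0.05, which 0.0268% of the 18625 tested probe sets did. At an unadjusted limma p under 0.05, 3 members were higher (Tmed1, Spcs1 and Ssr3) and 2 lower (Srp54a and Sec24d). The background at that p was 6.12% higher and 8.51% lower over all genes. The members' higher share, 6.52%, was near it, and their lower share, 4.35%, was below it. The groups did not overlap for 22 members. Of these, 8 were higher in PhIP (17.4%, against 21.6% of all genes) and 14 lower (30.4%, against 27% of all genes). The split at an unadjusted p moved with the scaling, as it did over all genes. After median centring 9 were higher and 1 lower (16.1% and 3.78% of all genes), and when scaled to the hybridization controls 10 and 1 (23.3% and 2.06%). After quantile normalization there were 2 and 4 (5.93% and 7.42%), and after cyclic loess 1 and 4 (6.04% and 7.35%). The counts also moved with the arrays used, again beside the background. In a fit with 1 array left out, the lone array is assumed to vary like the other group. The PhIP arrays lay closer together than the control arrays (median absolute log2 difference over all tested genes 0.12 against 0.19). Without control 1 there were 9 higher and 6 lower (12.6% and 16.3% of all genes), and 7 passed the adjusted p (Srp54a, Ssr3, Spcs1, Spcs3, Tmed2, Copa and Copz1), while 12.5% of all probe sets did. Without control 2, only Srp54a passed, among 2.48% of all probe sets. Without PhIP 1 there were 0 higher and 2 lower at the unadjusted p (2.52% and 4.10% of all genes), without PhIP 2 there were 0 and 1 (2.06% and 4.07%), and no member passed the adjusted p in either case.

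**Figure D1:**
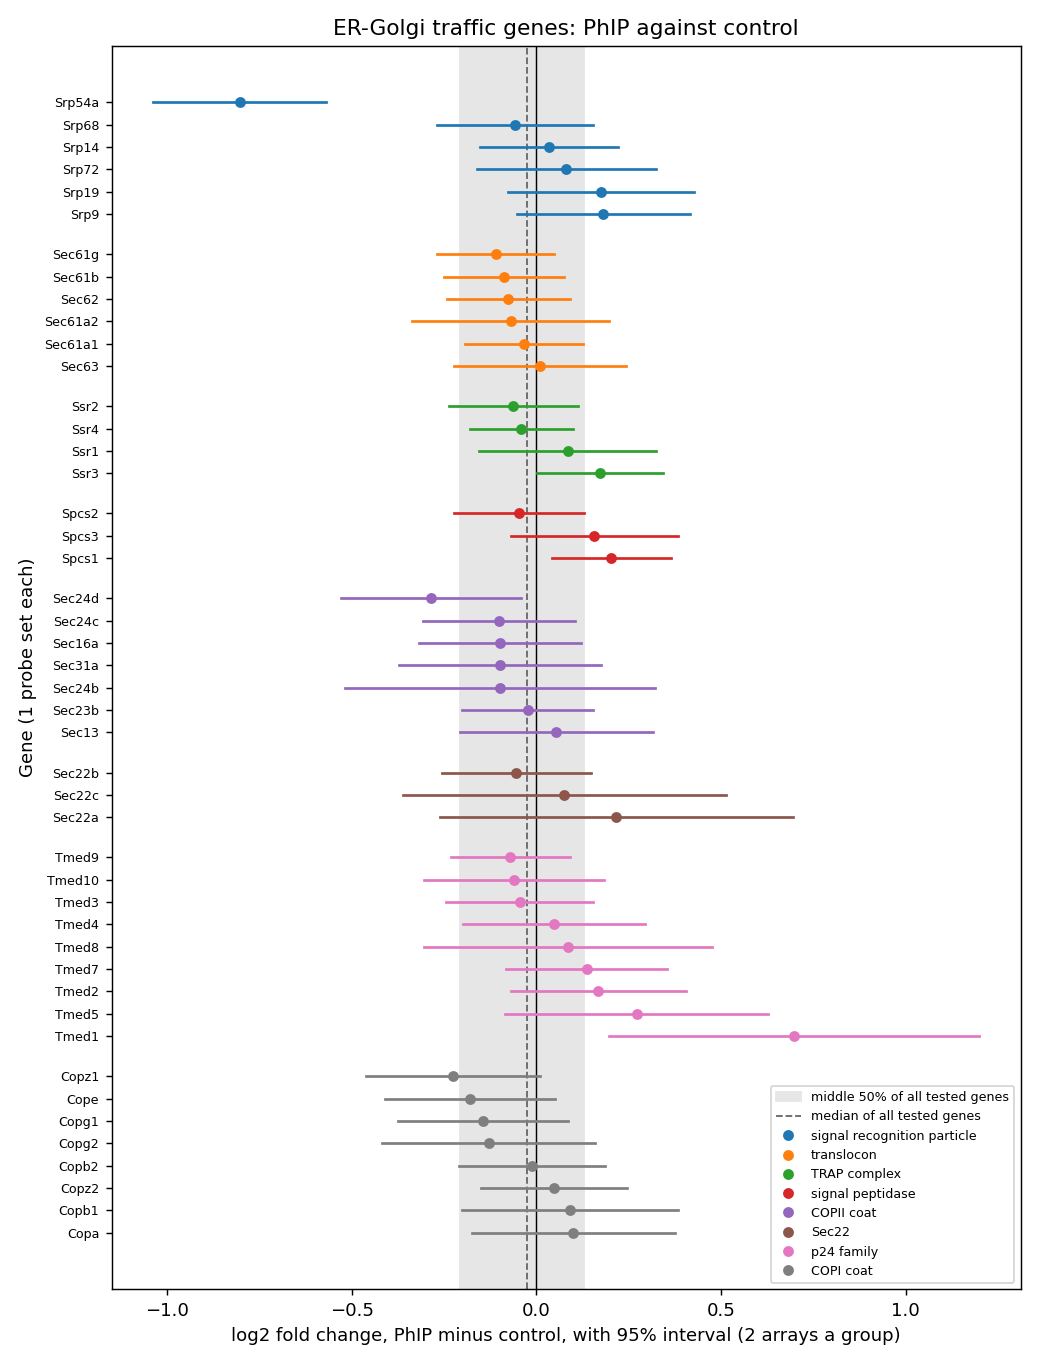
Log2 fold change of each of the 46 tested genes (PhIP minus control, 2 arrays a group) with its 95% limma interval, coloured by role, over the middle 50% (grey) and the median (dashed) of all tested genes. Srp54a at −0.80 and Tmed1 at 0.70 stand away from the other genes, which lie between −0.28 and 0.27.

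The signal recognition particle binds the signal sequence as it leaves the ribosome. Srp54a encodes the GTPase subunit that holds the signal sequence, and its brightest probe set had signals of 1664 and 1932 on the control arrays against 972 and 1076 with PhIP. Both PhIP arrays lay below both control arrays. The means were 1798 ± 189.7 (SD, n = 2) in control and 1024 ± 73.5 (n = 2) in PhIP. The log2 fold change was −0.80 ± 0.10 (SE) with an adjusted p of 0.0517 in limma, and 1.33% of the tested genes had a lower one. The adjusted p was 0.0473 with a constant of 20, 0.0456 with the filter at the 60th percentile, 0.0328 with robust eBayes and 0.0295 with the replicate block. It was above 0.05 with no constant, a constant of 2, no filter or no eBayes trend. The same held after quantile normalization, cyclic loess, median centring and scaling to the hybridization controls. Over all 17 alternatives, among them each array left out in turn, the log2 fold change lay between −0.91 and −0.26. A second probe set of the gene had 327 and 353 against 344 and 344, a log2 fold change of 0.017 ± 0.11, and the third, a dim one, had 14.0 and 36.8 against 22.6 and 25.4 (0.02 ± 0.33). The lower level in PhIP was therefore seen in 1 of 3 probe sets. With the mean of the 3 the gene stood at −0.26 and was not at an unadjusted limma p under 0.05. Among the other subunits, Srp19, which helps to load the GTPase subunit onto the RNA, had 336 and 317 against 375 and 365 (0.17 ± 0.11), and Srp9 (0.18 ± 0.10), a member of the pair that slows the ribosome, had 663 and 696 against 725 and 821. Neither overlapped between groups, and both were higher in PhIP. Its partner Srp14 stood at 0.034 ± 0.081, and Srp68 and Srp72, which join to form the body of the particle, at −0.058 ± 0.091 and 0.081 ± 0.10.

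**Figure D2:**
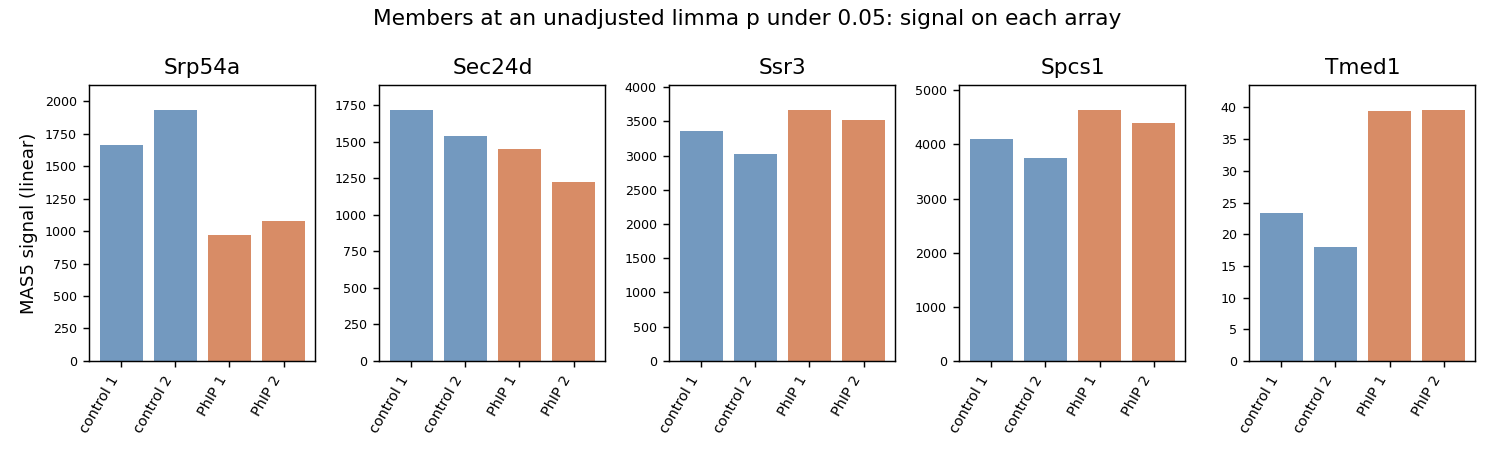
MAS5 signal (linear, axes from 0) on each of the 4 arrays for the 5 members at an unadjusted limma p under 0.05. In each gene the PhIP arrays do not overlap the control arrays, lying below in Srp54a (972 and 1076 against 1664 and 1932) and Sec24d and above in the other 3.

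The translocon is the channel through which the chain passes. Its genes had narrow changes, from −0.11 to 0.0091, with every 95% interval inside 0.5 of 0. Sec61a1, the channel-forming subunit, had signals of 2533 and 2407 on the control arrays against 2406 and 2419 with PhIP (−0.034 ± 0.069), and the groups overlapped. For its paralogue Sec61a2 the signals were 288 and 278 against 262 and 277 (−0.07 ± 0.11). The small subunit genes Sec61b and Sec61g stood at −0.087 ± 0.07 and −0.11 ± 0.068. The signals of Sec61g, 3290.3 and 3475 against 3225 and 3042, did not overlap. Sec62 and Sec63, membrane proteins that assist the channel, stood at −0.076 ± 0.072 and 0.0091 ± 0.10. All 6 intervals contained 0. The common sign depended on the scaling: 5 of the 6 were lower with the deposited one, all 6 after quantile normalization or cyclic loess, and none after median centring or scaling to the hybridization controls. It also depended on the probe set. Other tested probe sets stood at 0.098 ± 0.21 for Sec61a1, 0.021 ± 0.097 for Sec62, and 0.12, 0.053 and −0.096 for Sec63.

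The TRAP complex sits beside the channel and aids the entry of many signal sequences. Ssr3, its gamma subunit, had signals of 3359.9 and 3026 on the control arrays against 3666 and 3521 with PhIP, higher on both PhIP arrays (0.17 ± 0.074, adjusted p = 0.383). A second probe set of Ssr3 pointed the other way, with 1905 and 2483 against 1823 and 1809.5 (−0.26 ± 0.12), again without overlap, and the other, a dim one, gave 0.26 ± 0.21. Direction was thus not settled for this gene. Ssr1 stood at 0.084 ± 0.10, Ssr2 at −0.062 ± 0.075 and Ssr4 at −0.041 ± 0.06. A second probe set of Ssr1 stood at −0.044 ± 0.09. Signal peptidase cuts the signal sequence off. Its subunit gene Spcs1 had 4092 and 3751 against 4636 and 4388, means of 3922 ± 241 (SD, n = 2) in control and 4512 ± 175 (n = 2) in PhIP and a log2 fold change of 0.20 ± 0.069 (adjusted p = 0.298, 95% interval 0.042 to 0.36). Spcs3 had 3156 and 2592 against 3261 and 3122 (0.16 ± 0.10), where control 2 was below the other 3 arrays and control 1 lay between the PhIP arrays. Spcs2 stood at −0.048 ± 0.076.

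The COPII coat buds vesicles from ER exit sites, and 6 of its 7 tested genes were lower in PhIP by small amounts, none past the adjusted p (median −0.10), whereas after median centring or scaling to the hybridization controls 6 of the 7 were higher and only Sec24d was lower. Sec24d, a cargo-binding Sec24 paralogue, had signals of 1716 and 1537 on the control arrays against 1448 and 1224 with PhIP (−0.28 ± 0.10, adjusted p = 0.329), with no overlap. Its paralogue Sec24c had 763 and 779.6 against 710.3 and 727 (−0.10 ± 0.089), also without overlap. Sec24b had 78.3 and 68.5 against 60.5 and 75.8 (−0.10 ± 0.18), which overlapped, and a dimmer probe set of the same gene stood at −0.51 ± 0.22. The exit-site scaffold Sec16a (−0.10 ± 0.094), the outer cage gene Sec31a (−0.10 ± 0.12) and Sec23b (−0.024 ± 0.077), which stimulates the coat's GTPase, were near the median of all genes. Sec13, the other cage gene, stood at 0.054 ± 0.11. A second probe set of Sec16a stood at 0.078 ± 0.14. Sec16b was too dim to be tested, with signals between 3.2 and 17.2.

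Sec22b is a SNARE, a membrane fusion protein, of ER and Golgi vesicles. Its signals were 859 and 890.5 on the control arrays against 856 and 828 with PhIP (−0.055 ± 0.087). A second probe set of Sec22b stood at 0.078 ± 0.13. The related genes Sec22a (92.6 and 60.9 against 87.1 and 91.2, 0.22 ± 0.21) and Sec22c (214 and 299 against 304 and 235, 0.076 ± 0.19) varied more between arrays of 1 group, and their intervals, −0.26 to 0.69 and −0.36 to 0.51, leave a change of 0.5 possible.

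The p24 proteins are small membrane proteins that pass between ER and Golgi and bind cargo and coats. Tmed1 had signals of 23.3 and 18.0 on the control arrays against 39.5 and 39.6 with PhIP, means of 20.6 ± 3.75 (SD, n = 2) in control and 39.5 ± 0.071 (n = 2) in PhIP and a log2 fold change of 0.70 ± 0.22 (adjusted p = 0.255, 95% interval 0.20 to 1.20). Both PhIP arrays were above both control arrays, but the gene was dim and was not tested with the filter at the 60th percentile. Tmed5 was also dim and higher, with 81.3 and 80.1 against 94.7 and 104 (0.27 ± 0.15). Tmed2 and Tmed10 encode partners of the p24 heteromers. Tmed2 had 3186 and 2574 against 3296 and 3142 (0.17 ± 0.10), and its second probe set had 977 and 343 against 888 and 913, so control 2 was the lowest array in both. Tmed10 had 1547 and 1360.2 against 1288 and 1502 (−0.06 ± 0.10). Tmed7 stood at 0.14 ± 0.094, Tmed8 at 0.085 ± 0.17, Tmed4 at 0.047 ± 0.11 and Tmed3 at −0.046 ± 0.086. A dim second probe set of Tmed7 stood at −0.17 ± 0.27. Tmed9 stood at −0.071 ± 0.07 in its brighter probe set (2224 and 2317 against 2181 and 2139) and at 0.37 ± 0.13 in the dimmer one (173 and 170.3 against 234 and 216), neither with overlap. Tmed6 was not bright enough to be tested, with signals of 1.6 and 1.0 on the control arrays against 0.9 and 0.5 with PhIP.

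**Figure D3:**
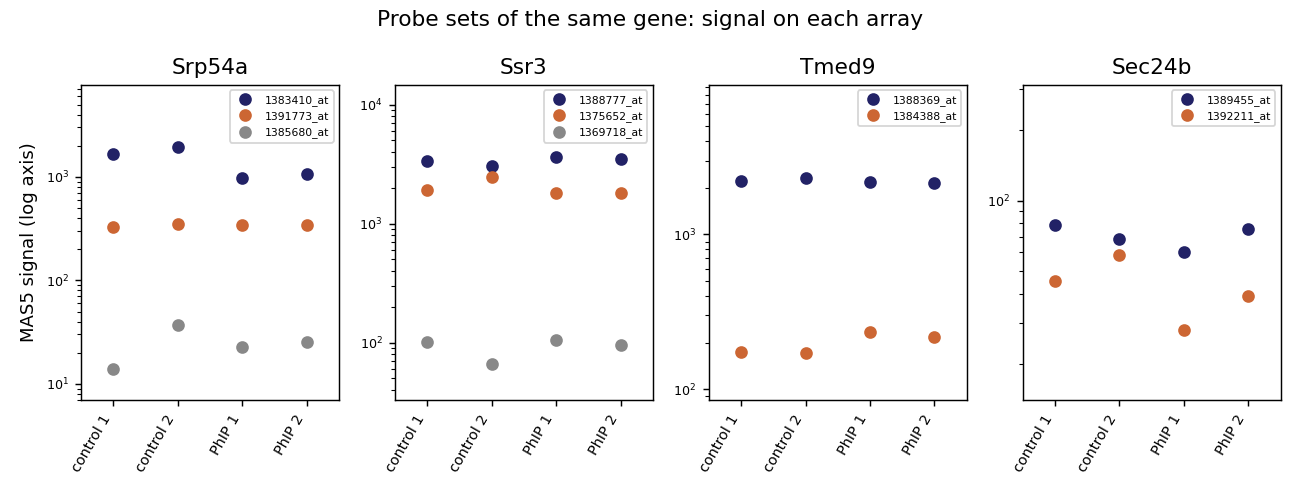
MAS5 signal (log axis) on each array for every probe set of Srp54a, Ssr3, Tmed9 and Sec24b, 1 colour per probe set. The brightest Srp54a probe set is lower on both PhIP arrays while the second stays between 327 and 353, and the brighter Ssr3 and Tmed9 probe sets differ in sign from the next ones.

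The COPI coat returns cargo from the Golgi to the ER, and its 8 genes, all tested, ran from −0.23 to 0.10. Copz1, a zeta subunit, had 1356 and 1555 against 1319.8 and 1166 (−0.23 ± 0.10, adjusted p = 0.405) and its second probe set 0.079 ± 0.18. Cope, the epsilon subunit, had 759 and 862 against 721 and 705 (−0.18 ± 0.10). The gamma subunit paralogues were alike in value, Copg1 at −0.14 ± 0.10 (748 and 668 against 636 and 641) and Copg2 at −0.13 ± 0.12. These 4 of the 8 genes (50%) were lower in PhIP without overlap of the groups, against 27% of all genes, but after median centring Copg2 was higher and after scaling to the hybridization controls all 8 COPI genes were. Copa, the alpha subunit, had 1669.7 and 1298 against 1581 and 1578 (0.10 ± 0.12), with control 2 below the other 3 arrays. Copb1 stood at 0.092 ± 0.13, Copb2 at −0.012 ± 0.085 and the second zeta gene Copz2 at 0.047 ± 0.085, higher without overlap (875 and 889 against 898 and 925). Without control 1, Copa stood at 0.28 and Copz1 at −0.32. Without control 2, Copa stood at −0.080.

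Genes of this pathway are known targets of the unfolded protein response, in which the factors XBP1 and ATF6 bind short promoter elements, so the promoters were searched for them on both strands, from 250 bases before to 50 after the start (RefSeq, GRCr8). Of the 48 genes, 44 had an entry, and Sec24c, Sec24d, Sec61a1 and Sec61a2 had none. The core of the unfolded protein response element, TGACGTG, whose first 6 letters also begin the cAMP response element, was found in 6 of the 44 (13.6%), against 2.02% of all 27457 genes with an entry. Those genes were not limited to the ones tested here or matched to the members for brightness or base content. The difference between the shares was not tested. The ER stress element known as ERSE and its variant ERSE-II were found in 0 of the 44, against 0.0765% and 0.0619% of all genes. Exact matches are so rare that 44 genes would seldom hold one, so the 0 cannot set the members apart from all genes. The 3 COPI genes with the core are shown with Sec16a, as examples of the coat and of an exit-site gene, chosen after the matches were seen. Capitals mark the match, read 5′ to 3′ on the strand of the gene.
Copa, chr13:87078871-87078917, gene on the plus strand: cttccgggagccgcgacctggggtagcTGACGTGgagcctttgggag
Copb1, chr1:177872812-177872872, gene on the minus strand: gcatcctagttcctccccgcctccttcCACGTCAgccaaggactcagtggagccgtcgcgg
Copb2, chr8:108040651-108040711, gene on the plus strand: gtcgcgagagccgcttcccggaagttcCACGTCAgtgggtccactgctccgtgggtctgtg
Sec16a, chr3:29662453-29662513, gene on the minus strand: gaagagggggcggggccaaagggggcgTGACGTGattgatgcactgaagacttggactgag
The match in Copb1 begins 5 bases and that in Copb2 9 bases before the start, in the reverse orientation in both. That in Sec16a begins 167 bases before it, and that in Copa 30 bases after it. The genes that carry the core stood at 0.10 ± 0.12 (Copa), 0.092 ± 0.13 (Copb1), −0.012 ± 0.085 (Copb2), −0.10 ± 0.094 (Sec16a), 0.17 ± 0.11 (Srp19) and −0.041 ± 0.06 (Ssr4). None of the 6 had an unadjusted p under 0.05. A match describes letters in this window and is not evidence of binding.

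The mRNA of the factors that act on these elements was itself measured, but not the activity of their proteins. Xbp1 had signals of 2572 and 2522 on the control arrays against 2541 and 2535 with PhIP (−0.0052 ± 0.066), so the 4 arrays lay close together. Atf6 (−0.068 ± 0.12) and the stress-response genes Atf4 (0.014 ± 0.077) and Ddit3 (−0.18 ± 0.17) overlapped between groups too. Among the ER-bound factors of the Creb3 family, Creb3l4 was higher (226 and 187 against 267 and 289.9, 0.42 ± 0.14) and Creb3l1 lower (82.0 and 100.1 against 69.9 and 50.9, −0.53 ± 0.20), with adjusted p = 0.282 and 0.336. Creb3 had 216 and 217 against 175 and 182 (−0.26 ± 0.12). Creb3l4 passed without control 1 (0.55, adjusted p = 0.0117) and under no other of the 17 alternatives.

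Partner genes of the pathway were described in the same way. Of 111 tested, the median was −0.0021, 55 were higher and 56 lower, and 0 passed limma's adjusted p. At an unadjusted p, 7 were higher (6.31%, against 6.12% of all genes) and 4 lower (3.6%, against 8.51%). Without control 1, 17 passed the adjusted p (15.3%, against 12.5% of all probe sets), and without control 2, 1 did (0.901%, against 2.48%). The widest change was in Trappc9, a subunit of the TRAPP complex that tethers vesicles at the Golgi, with 128 and 135 against 63.5 and 61.6 (−0.96 ± 0.15, adjusted p = 0.0729). It passed in 3 of the 17 alternatives, without control 1 (−0.997), without control 2 (−0.93) and with the mean of probe sets (−0.96). Trappc2 of the same complex had 166 and 167 against 219.7 and 214 (0.36 ± 0.12) and the tethering GTPase Rab1b 527 and 487 against 620.0 and 620.5 (0.29 ± 0.10), both higher without overlap. The other 33 tested tether, Rab and SNARE genes lay between −0.33 and 0.21.

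Among genes for cargo receptors and related membrane proteins, 3 of 17 were higher at an unadjusted p (17.6%, against 6.12% of all genes) and 0 lower (against 8.51%). Bcap29 (121 and 123 against 187 and 176, 0.54 ± 0.13) and Bcap31 (0.28 ± 0.10) encode related ER membrane proteins that bind cargo, and Lman2l (0.29 ± 0.12) a lectin. Retrieval receptors for escaped ER proteins stood at −0.10 ± 0.089 (Kdelr1), 0.044 ± 0.089 (Kdelr2) and −0.12 ± 0.11 (Kdelr3). Of the 9 tested genes for the COPI GTPase Arf and its partners, Arfgap2, which stimulates that GTPase, was lower (195 and 220.4 against 168 and 161, −0.32 ± 0.13). Arfgap3 stood at −0.13 ± 0.077, Arfgap1 at −0.20 ± 0.14 and Arcn1, the delta subunit of the coat, at −0.15 ± 0.11. None of the 8 COPII partners was past an unadjusted p, with the COPII GTPase genes Sar1a at −0.14 ± 0.11 and Sar1b at 0.035 ± 0.083 and their exchange factor Preb at −0.15 ± 0.12. Another of these partners, Tecpr2, stood at 0.15 ± 0.16. Of 30 genes for translocation and glycosylation, Ost4, a small subunit of the oligosaccharyltransferase, was lower (2594 and 2768 against 2191 and 2123, −0.31 ± 0.071, adjusted p = 0.155) and Emc8, of a membrane protein insertase, higher (0.44 ± 0.15). Of the other subunits of that enzyme, Dad1 stood at −0.15 ± 0.071 and Ddost at 0.15 ± 0.075, neither with overlap, so its genes lay on both sides of 0. Sec11a and Sec11c, the catalytic signal peptidase genes, stood at 0.093 ± 0.10 and 0.11 ± 0.064, both higher without overlap, and the receptor gene for the signal recognition particle, Srpra, at 0.065 ± 0.072.

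Markers of other cell types differed between the same arrays. Over all tested genes, 21.6% were higher and 27% lower without overlap. All 10 smooth muscle genes were lower in PhIP without overlap, with summed signals of 6246 and 6172 against 3819 and 3877. Of 9 fibroblast genes, 8 were lower without overlap (sums 12504 and 9940 against 7494 and 7640). Of 12 luminal genes with a probe set, 9 were higher without overlap (sums 31038 and 29120 against 33587 and 34335). Among these 9 were Epcam, an epithelial adhesion gene (0.17 ± 0.068), and Krt18 (0.13 ± 0.084). The 1 luminal gene lower without overlap, Msmb, was too dim to be tested. Endothelial genes were lower without overlap in 6 of 7 (sums 359 and 373 against 254 and 264). Macrophage genes were higher without overlap in 3 of 8 and lower in 1 (sums 5489 and 5365 against 6761 and 6734). The median log2 fold change of the macrophage genes was −0.043, with 3 above 0 and 5 below. Of plasma and B cell genes, 7 of 11 had a probe set and 1, Prdm1, was tested. Their sums were 66.7 and 74.8 against 82.1 and 28.1, with the plasma cell gene Jchain at 6.3 and 17.5 against 24.4 and 4.1. Basal genes summed to 987 and 958 against 869 and 954, adipocyte genes to 424.5 and 298 against 144 and 236, and skeletal muscle genes to 2499 and 3030.2 against 1840 and 1714. Lower without overlap were 3 of 5 basal, 3 of 8 adipocyte and 6 of 9 skeletal muscle genes, and 1 adipocyte gene was higher. The basal genes had a median log2 fold change of −0.34, with all 5 tested below 0. The part of these shifts in the values of the traffic genes was not tested.

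**Figure D4:**
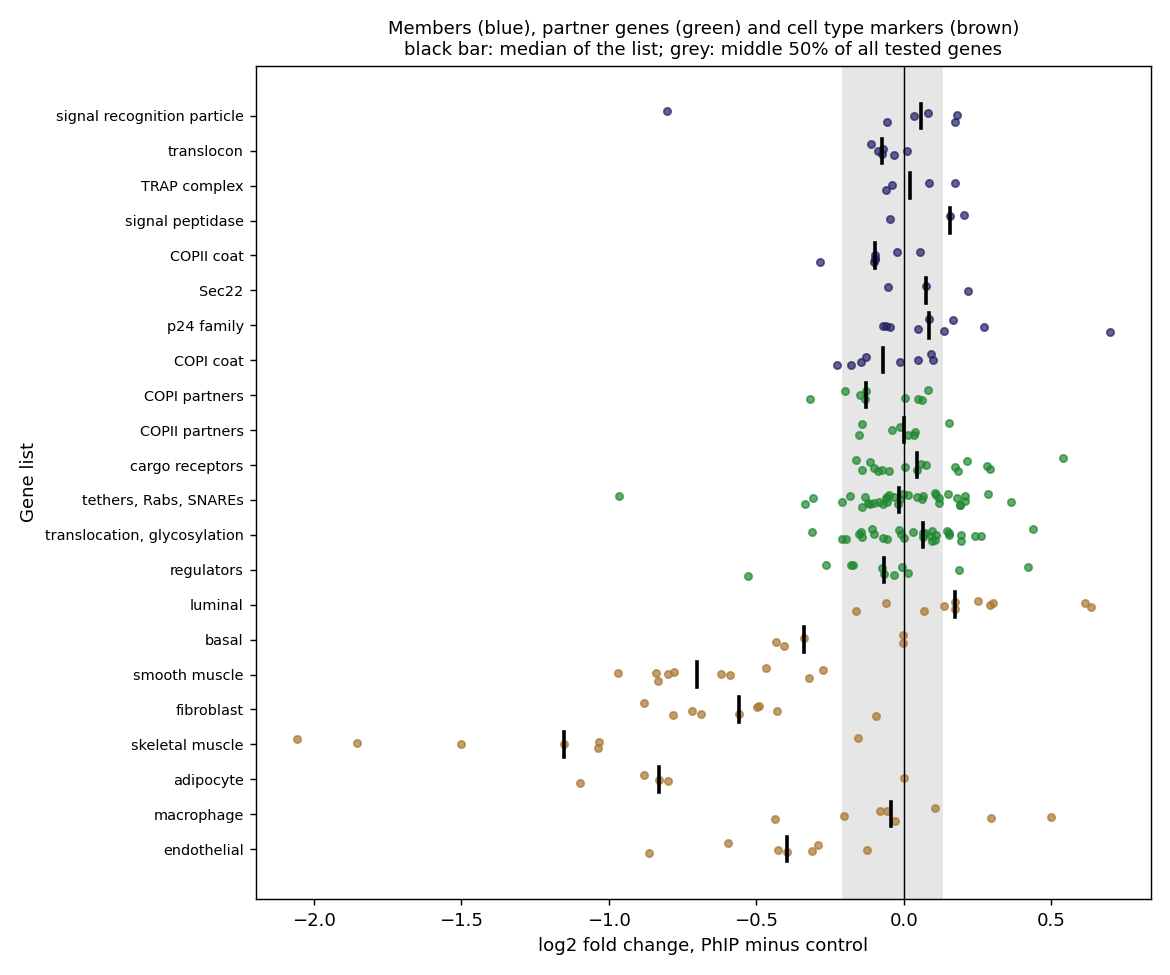
Log2 fold change (PhIP minus control) of each tested gene by list: members in blue, partner genes in green and cell type markers in brown, with the list's median as a black bar and the middle 50% of all tested genes in grey. Medians of the 8 member groups lie between −0.10 and 0.16, while those of smooth muscle and fibroblast markers are −0.70 and −0.56.

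The members' arrays lay closer together in PhIP than in control, with no test of that difference. The median absolute log2 difference was 0.13 between the control arrays and 0.08 between the PhIP arrays, against 0.19 and 0.12 over all tested genes. Neither control array was uniformly higher, with 26 of the 46 above in control 1, and neither PhIP array was, with 27 above in PhIP 1. Of 20 members with several probe sets, 18 had at least 2 that were tested, and in 11 of these the probe sets differed in sign. Scaling set the common level: all genes had a median of 0.11 after median centring and 0.20 when scaled to the hybridization controls, and the members moved with them, to 0.11 and 0.20, with 41 and 44 of 46 above 0. After quantile normalization and cyclic loess the members' medians were −0.066 and −0.062, against −0.015 and −0.012 for all genes. Statements that a member was higher or lower by less than that shift hold for the deposited scaling.

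**Figure D5:**
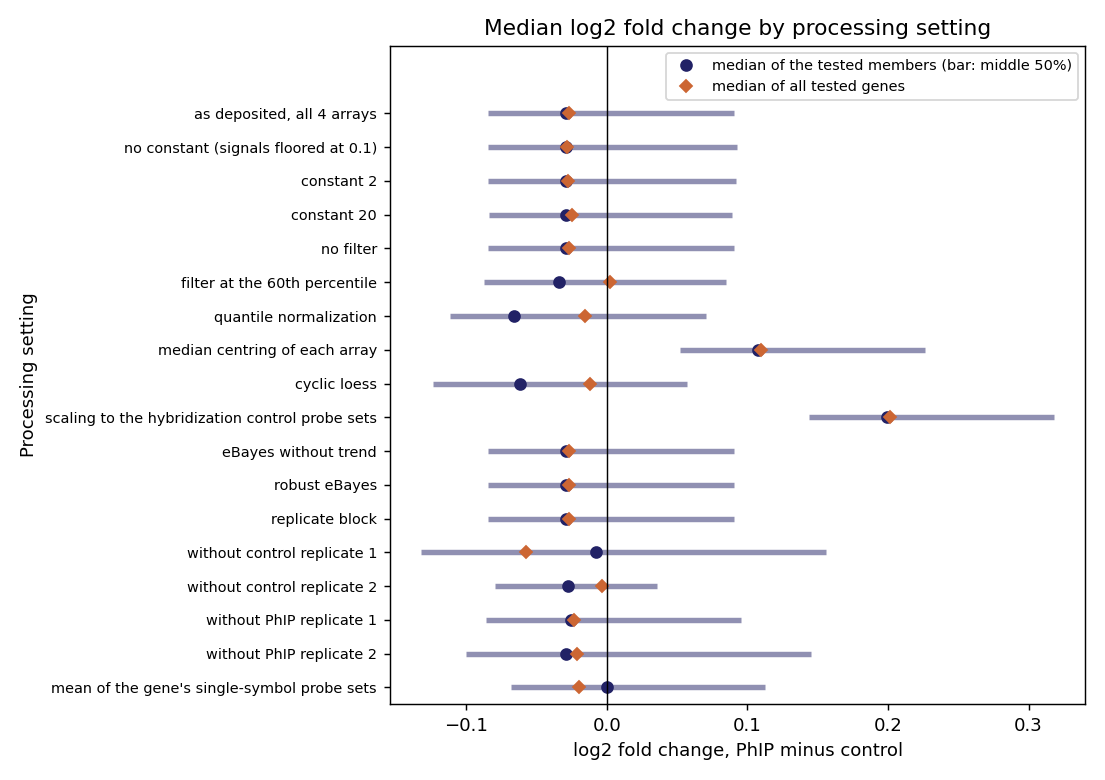
Median log2 fold change (PhIP minus control) of the tested members (blue, bar for the middle 50%) and of all tested genes (orange diamonds) under the deposited scaling and each of the 17 alternatives. Both medians are higher under median centring (0.11) and scaling to the hybridization controls (0.20), and the members' median lies between −0.066 and 0.00041 under the others.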

How the data were processed

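The authors deposited linear-scale intensities, MAS5 signals with 1 value per probe set and array. The submitters' processing notes name MAS5 only. Neither its version nor the scaling target is given in the sources used here, and no detection call was used. Signals over background were not used, and the number of arrays (2 a group, each of 2 mixed rats) limits the precision. Of 31099 probe sets, 20832 carry 1 symbol in the platform annotation, 436 several and 9831 none. The 57 manufacturer's controls were left out. Signals were analysed as log2(signal + 10), so folds of dim genes are understated. Of the rest, the 18625 above the 40th percentile of the mean log2 value (24.3 on the linear scale, constant included) were tested in limma 3.58.1 under R 4.3.3 (moderated test, eBayes with an intensity trend, 2 residual and 5.67 prior degrees of freedom), two-sided, with Benjamini-Hochberg adjustment over all of them. Members are named where they had the largest moderated statistics of their role, the highest signal, an unadjusted p under 0.05, probe sets of differing sign, or were not tested, and partner genes are the 3 with the largest statistic in each list. The other 14 members, other partner genes and the promoters printed were added after their values were seen. The members, partner lists, markers and this rule were chosen with earlier results of these data known. The labels number the arrays 1 and 2 in both groups, but the deviations of same-numbered arrays had a correlation of −0.056, so the numbers were not taken as pairs. Steps were tested on simulated data. Python 3.11.15 with matplotlib 3.10.9 drew the figures.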

Additional observations from a re-analysis of the deposited data

How the results depend on the processing

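The members' median log2 fold change was −0.066 after quantile normalization, −0.062 after cyclic loess, 0.11 after median centring, 0.20 after scaling to the hybridization controls and 0.00041 with the mean over probe sets of a gene. It ranged from −0.029 to −0.0076 when each array was left out. The partner genes' median was −0.027, −0.035, 0.13 and 0.23 under the same 4 scalings, and from −0.019 to 0.014 with an array left out. Of the members, 10 were at an unadjusted limma p under 0.05 after median centring, 11 after scaling to the hybridization controls, 3 with no filter, 2 without the eBayes trend, 3 with the mean of probe sets, and from 1 to 15 with an array left out (2.17% to 32.6%). Of the partner genes, 29, 35 and 6 were after median centring, after scaling to the hybridization controls and without the trend, and from 3 to 35 with an array left out (2.70% to 31.5%). Over all probe sets the share at that p was 17.0% after median centring, 22.8% after scaling to the hybridization controls, 9.68% with no filter, 12.1% without the trend, 15.2% of genes with the mean of probe sets, and 5.62% to 28.3% with an array left out, against 13.0% in the reported fit. Past the adjusted p of 0.05 there was 1 member (Srp54a) with a constant of 20, with the filter at the 60th percentile, with robust eBayes and with the replicate block, and from 0 to 7 with an array left out. There was 1 partner gene with the mean of probe sets and from 0 to 17 with an array left out. Over all probe sets the number of calls was 23 with a constant of 20, 44 with the filter at the 60th percentile, 165 after scaling to the hybridization controls, 3 after cyclic loess, 52 with robust eBayes, 35 with the replicate block and 0 without a filter, without the trend, or after quantile normalization or median centring, and from 0 to 2334 with an array left out. The cause of these differences was not tested. The replicate block gave 5 members and 9 partner genes at the unadjusted p and left every fold change as it was, with Srp54a at adjusted p = 0.0295. Of 781 values for the 46 tested members under 17 alternatives, 697 kept their direction and side of the threshold, 12 (in 7 genes) passed it only under the alternative, and 72 changed sign without passing. The sign held under every alternative for 14 of the 46. For the 111 tested partner genes the same counts were 1691, 19 (in 17 genes) and 176 of 1886 values, and the sign held for 35. With an array left out, the lone array is assumed to vary like the other group. With 2 pools a group, a member whose 95% interval contains 0 may still have changed by any amount within that interval.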
